A study of Homo sapiens with 2 samples.

Results

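YB-1 PAR-CLIP sites past the midpoint of the coding sequence were examined in wild-type HEK293T cells, an established human embryonic kidney line. In PAR-CLIP, living cells build 4-thiouridine into their RNA, long-wave UV light links the labelled bases to the bound protein, and each linked base is later read as C in place of T. The cells of the 2 replicates, Rep.A and Rep.B, were labelled wild type, carried 100 µM 4-thiouridine for 16 h, and were exposed to 0.15 J/cm2 at 365 nm. The design holds 1 condition without a control library, and conditions could not be compared. The deposited tables list 1382 clusters, the crosslinked stretches called by the peak caller, in Rep.A against 2011 in Rep.B, and no reads. A cluster was counted when it spanned at most 60 bases, lay outside the mitochondrial genome and had its middle base, on the same strand, in the coding sequence of a protein-coding gene, at a spliced position beyond 50% of that sequence. The coding sequence was that of the transcript with the longest one in GENCODE release 44. Rep.A had 257 such clusters, Rep.B 340. Clusters that overlapped by at least 1 base on the same strand were joined, which left 373 second-half sites in 319 genes, out of 2199 sites of this width on the nuclear chromosomes. Of the 3393 clusters in both tables, 3393 carried the hg38 sequence of their position.

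YB-1 is a cold shock domain protein that packages messenger RNA in the cytoplasm and affects its translation and stability. The cold shock domain holds single-stranded RNA, and the short motif CAUC, written CATC in DNA letters, is its best known target. A coding sequence is read in triplets by ribosomes that move from the start to the stop codon, so a protein bound inside it shares this stretch with translating ribosomes. RNase T1, the enzyme used to trim the RNA, cuts after G. Fragments that survive it tend to end in G and to hold little G inside. The transcript level of each gene is not in these tables, and a site with high coverage may lie in an abundant RNA or in one that is often bound. Those cannot be told apart here.

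The following sites are 8 of the 15 second-half sites with the highest coverage in both replicates, chosen to show the range of their sequences. They are printed 5′ to 3′ in DNA letters from hg38, with every CATC and CACC in capitals.
HNRNPUL1, chr19:41304032-41304053, plus strand: ataacaacaactccaacaacag
NDUFA12, chr12:94971443-94971466, minus strand: atccCACCttcaaCACCttacaag
ATF4, chr22:39522318-39522339, plus strand: cccaaaccttacgatcctcctg
LRRC47, chr1:3782674-3782697, minus strand: ttccttccCACCaataaccaacag
EIF4G2, chr11:10799213-10799235, minus strand: ctataacagcaacttcccaaaag
OXA1L, chr14:22770570-22770592, plus strand: atccCATCtacatattaccactg
SEC61A1, chr3:128067002-128067022, plus strand: tacaaCACCtatccCATCaag
NT5C3B, chr17:41828819-41828839, minus strand: tcCACCccaaCATCcaCATCg
All of these end in G, and G is scarce before that last base.

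The next set shows sites of other kinds that the results return to. PRPF8 holds repeated CATC, FNDC4 and PSMB2 lie against the stop codon, YBX1 is the gene of YB-1 itself, TUBA1C was found in Rep.B alone, and the HSPA1A and H2BC13 sequences are shared by several genes.
PRPF8, chr17:1658320-1658341, minus strand: cCATCttCATCttcaacccacg
FNDC4, chr2:27492451-27492471, minus strand: CACCATCtatcaaCACCATCg
PSMB2, chr1:35603276-35603296, minus strand: aacatttccttccccaaacag
YBX1, chr1:42696755-42696776, plus strand: caattaccagcaaaattaccag
TUBA1C, chr12:49272540-49272563, plus strand: cccaacctacactaaccttaaccg
HSPA1A, chr6:31817004-31817025, plus strand: caactcCACCATCccCACCaag
H2BC13, chr6:27807629-27807657, minus strand: tacaacaagcgctcgacCATCACCtccag

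The 2 replicates shared 224 of the 373 second-half sites (60.1%, 95% Wilson interval 55.0 to 64.9%). Over all sites of at most 60 bases on the nuclear chromosomes the shared fraction was 48.1%. Of the remaining second-half sites, 33 were in Rep.A alone and 116 in Rep.B alone, and Rep.B was the deeper library. The share did not stand apart from that of other sites in messenger RNA. It was 61.6% for the 224 sites before the midpoint of the coding sequence, a difference of -1.55 percentage points (95% Newcombe interval -9.49 to 6.56). It was 59.8% for the 371 sites in 3′ UTRs, a difference of 0.215 points (-6.79 to 7.22). All intervals here cover counting error only, and since sites of 1 gene or of 1 repeated sequence are not independent, they are narrower than they should be.

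Where both replicates found a site, they placed it at nearly the same bases. Start and end were identical for 182 of the 224 shared sites, and the 3′ end for 216. The mean coverage of second-half clusters had a median of 13 reads per base in Rep.A (quartiles 8 and 18.7, range 2.68 to 154.1, n = 257). Rep.B clusters had a median of 32 (quartiles 18 and 47.1, range 2.88 to 365.3, n = 340). These values are not scaled for library depth. On the log2 scale Rep.B exceeded Rep.A by a median of 1.35 (SD 0.53, n = 224 sites), against 1.42 (SD 0.51) for sites before the midpoint, 1.44 (SD 0.58) in 3′ UTRs and 1.39 (SD 0.58) over all 1057 shared sites. Across the 224 sites, log2 coverage of the replicates had a Pearson r of 0.84, and the Spearman rho was 0.80. This describes sites of the same pair of libraries, which differ in transcript abundance, and carries no test.

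Recovery was lowest for clusters of low coverage. Second-half clusters of Rep.A were found in Rep.B in 51 of 67 cases in the lowest quartile of coverage and in 60 of 64 in the highest (76.1% and 93.8%). For Rep.B clusters sought in Rep.A, the shares from the lowest to the highest quartile were 39.1%, 66.7%, 83.3% and 75.3%. The top quartile of Rep.B thus held 21 clusters without a partner. Clusters found in 1 replicate alone had median coverages of 8.85 (Rep.A) and 19.98 (Rep.B), below the 14 and 36.2 of shared ones.

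**Figure D1:**
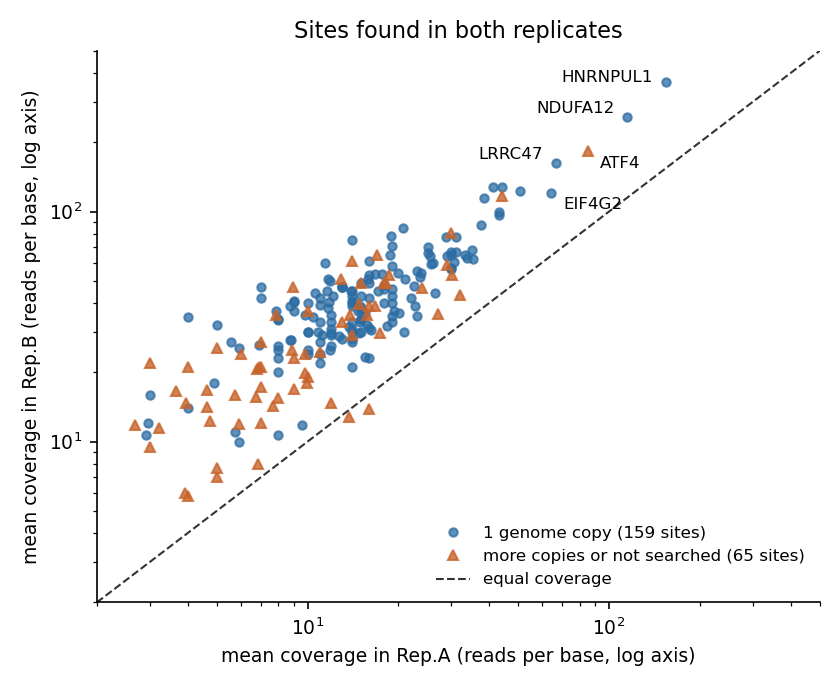
Mean coverage of each of the 224 second-half sites found in both replicates, Rep.A on the x axis and Rep.B on the y axis, in reads per base on log axes. Circles are sites whose sequence occurs once in hg38, triangles those with more copies or with a sequence too short to search, and the dashed line marks equal coverage. Points lie above the line except RPS13 and RPL15, and HNRNPUL1 and NDUFA12 stand at the top.

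The strongest site was in HNRNPUL1 (ENSG00000105323), a gene for a nuclear RNA-binding protein of the hnRNP U family. Its coverage was 154.1 reads (Rep.A) and 365.3 reads (Rep.B), the maximum of both libraries among second-half sites. It lies in exon 13 of 15, 525 bases before the last coding base, and has neither CATC nor CACC. A neighbouring site in the same exon, at 41304062 to 41304084, had 38.5 reads (Rep.A) and 114.6 reads (Rep.B), so in both replicates the coverage was several times lower just downstream.

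NDUFA12 (ENSG00000184752), which encodes an accessory subunit of mitochondrial complex I, held the next highest site. It had 114.8 reads (Rep.A) and 256.4 reads (Rep.B), in exon 4 of 4. The middle of this site is 11 bases from the last coding base, the shortest such distance of all 373. A further NDUFA12 site, 135 bases before the end, was called in Rep.B alone with 32 reads. ATF4 (ENSG00000128272), the transcription factor of the integrated stress response, followed with 84.9 reads (Rep.A) and 183.2 reads (Rep.B) in exon 3 of 3. Its sequence occurs at 2 places in the genome, the other in a pseudogene, and the aligner assigned such reads to 1 of the matching positions at random. Another ATF4 site, 307 bases before the last coding base, was called in Rep.B alone with 8 reads, and its sequence occurs at 3 places. Both genes thus had a further site in Rep.B alone, at the Rep.B median for NDUFA12 and below it for ATF4.

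LRRC47, a gene for a leucine-rich repeat protein, had 66.6 reads (Rep.A) and 161.8 reads (Rep.B) at its site in exon 5 of 7. OXA1L, which encodes the insertase of the mitochondrial inner membrane, had 44.3 and 128.2 reads. SEC61A1, the channel subunit of the translocon in the endoplasmic reticulum, had 41.1 and 127.2. These genes have sites whose sequence occurs once in the genome. ZNF22, a zinc finger gene, had 43.3 reads (Rep.A) and 96.7 reads (Rep.B), and its site has both CATC and CACC. NT5C3B, a 5′-nucleotidase gene, had 37.6 and 87.3. In each of these sites Rep.B exceeded Rep.A, as it did in all but 2 of the 224 shared sites, RPS13 (16 reads (Rep.A) and 13.9 reads (Rep.B)) and RPL15 (13.8 and 12.8). Both of those exceptions have sequences with more than 1 genome copy.

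Some sites of high coverage were called in 1 replicate alone. In Rep.A, a YBX1 site of 17 bases had 43.9 reads, CAPZA1, which encodes an actin capping subunit, had 34.7, and RBSN, which encodes an endosomal Rab effector, had 31.0. In Rep.B, TUBA1C, an alpha-tubulin gene, had 198 reads, the zinc finger gene ZNF317 had 131 and TUBB, a beta-tubulin gene, had 128. None of these had a called cluster at that position in the other library. Coverage outside clusters is not in the tables, so reads below the calling threshold there were not detectable. The TUBA1C sequence has 2 copies in the genome, the other in an exon of a different protein-coding gene, while those of ZNF317, TUBB, CAPZA1 and RBSN have 1.

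Within the coding sequence, sites were more frequent past the midpoint than before it. The 373 second-half sites made up 62.5% of the 597 coding sites (95% Wilson interval 58.5 to 66.3%). The stretches before and past the midpoint have equal lengths, and no test against an even split was run. Rep.A had 61.0% of its coding clusters there (56.3 to 65.6%) and Rep.B 63.2% (59.0 to 67.2%). Shared sites gave 61.9%, and counting each gene once by its site of highest coverage gave 61.6% (57.2 to 65.8%). Among single-copy sites the share was 60.2% (55.4 to 64.7%).

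The sites were not spread evenly between start and stop. From the start codon on, 10 bins of equal relative length held 24, 36, 56, 49 and 59 sites before the midpoint and 80, 98, 53, 78 and 64 past it. The first bin thus held the fewest and the seventh the most. The fraction found in both replicates ranged from 54.7% to 62.5% over the 5 bins past the midpoint. Median coverage over these bins ranged from 11.4 to 14 reads (Rep.A) and from 28 to 34 (Rep.B). CATC was present in 56 of 98 sites of the seventh bin (57.1%) and in 21 of 64 of the last (32.8%). This contrast between bins was picked after the values were seen and carries no test.

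**Figure D2:**
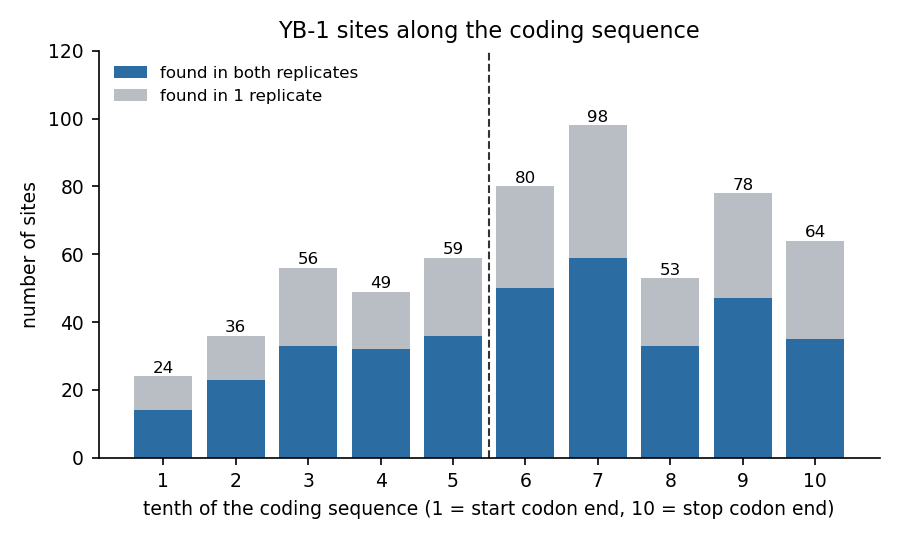
Number of YB-1 sites (y axis) in 10 equal bins of relative position in the coding sequence (x axis, start codon at the left), with the midpoint as a dashed line. Blue is the number found in both replicates, grey the number found in 1, and the figure over each bar is their sum. The profile is uneven, with 24 in the first bin, 56 in the third, 49 in the fourth, 98 in the seventh, 53 in the eighth and 64 in the last.

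The sequence on either side of the midpoint was also counted. In the genes with a coding site, 88.9% of second-half bases could start a 22-base window within 1 exon, against 87.8% before the midpoint. This matters because reads were aligned without splicing. Windows of 22 bases that contained a T and ended in G numbered 218.2 per kilobase past the midpoint and 221.6 before it. CATC occurred 5.97 and 5.28 times per kilobase, past and before the midpoint. The base make-up past the midpoint was 27.1% A, 26.3% C, 25.1% G and 21.6% T, against 27.0%, 25.2%, 25.9% and 21.9% before it. These counts are for the same transcripts. Ribosome occupancy and RNA fragmentation along the transcripts were not measured in this assay, and their part in the distribution was not tested.

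The second-half sites had a median width of 22 bases (quartiles 21 and 24, range 10 to 43). Their median relative position was 71.6% of the coding sequence. The median distance from the middle of a site to the last coding base was 347 bases (quartiles 165 and 679), and 43 sites (11.5%) were within 100 bases of it. The last exon held 134 sites (35.9%), and 368 of the 373 lay within a single exon. The genes had a median coding length of 1539 bases, close to the 1560 bases of the 206 genes with a site before the midpoint.

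The sites nearest the stop codon were those of NDUFA12 (11 bases), UQCRH and its intronless relative UQCRHL (both 14), FNDC4 and CGGBP1 (both 15). UQCRH encodes a subunit of mitochondrial complex III. The UQCRH and UQCRHL sequences are identical and were called in Rep.B alone, with 12 and 18 reads. FNDC4, a fibronectin type III domain gene, had 15 reads (Rep.A) and 34 reads (Rep.B). CGGBP1, whose product binds CGG repeats in DNA, had 29 and 64. PSMB2, a proteasome subunit gene, followed at 16 bases with 14 reads (Rep.A) and 28 reads (Rep.B). Apart from the UQCRH pair, these stop-proximal sites were shared by both replicates and had 1 genome copy.

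At the other end, the rule separated sites that lay close together. Just past the midpoint were those of TLE4 (14.8 reads, Rep.B alone), WASF1 (5.91 reads (Rep.A) and 25.6 reads (Rep.B)) and RNF167 (2.96 and 12). TLE4 encodes a transcriptional corepressor, WASF1 a subunit of the WAVE complex and RNF167 a ubiquitin ligase. Just before it were TUBA1B (34.96 and 107.9 reads), TUBB (20 reads, Rep.B alone) and MANEAL (11 and 39). The sites on the 2 sides of the limit had overlapping coverage in both replicates.

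The sequence of second-half sites was poor in G and rich in C. They were made of 28.6% A, 39.7% C, 9.62% G and 22.02% T, and much of the G was the last base. A terminal G was present in 359 of 373 sites (96.2%, 93.8 to 97.8%). The base before the site was G in 211 (56.6%), and 197 (52.8%) had no G before the last base. Sites before the midpoint were similar, with a terminal G in 95.5% and a preceding G in 52.7% (difference 3.89 points, Newcombe interval -4.31 to 12.1). In 3′ UTR sites the base before was G in 39.6%, a difference of 16.9 points (9.78 to 23.9). The terminal G was as frequent there, at 96.2% (difference 0.0202 points, -2.86 to 2.90).

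CATC was the most frequent of all possible 4-base words. It was in 179 of the 373 second-half sites (48.0%, 43.0 to 53.1%), followed by CACC in 163 (43.7%, 38.8 to 48.8%), TCCA in 160, CAAC in 155 and CCAC in 131. CATC or CACC was present in 268 sites (71.8%) and both in 74 (19.8%). In the run CACCATC, seen in FNDC4 and HSPA1A, they overlap by 1 base. Among the 224 shared sites, CATC was in 52.2% and CACC in 47.8%, and among the other 149 in 41.6% and 37.6%. By replicate, CATC was in 50.2% of the Rep.A clusters and 48.8% for Rep.B.

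Against other sites, CATC was 4.69 points more frequent than before the midpoint (43.3%), with a Newcombe interval from -3.57 to 12.8, which includes 0. It was 12.1 points more frequent than in 3′ UTR sites (35.8%), with an interval from 5.05 to 19.1. For CACC the difference was -2.73 points from sites before the midpoint (46.4%, interval -10.9 to 5.45) and 7.04 points from 3′ UTR sites (36.7%, interval -0.00160 to 14.0). Both CACC intervals include 0. Both motifs were searched on the RNA strand only.

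**Figure D3:**
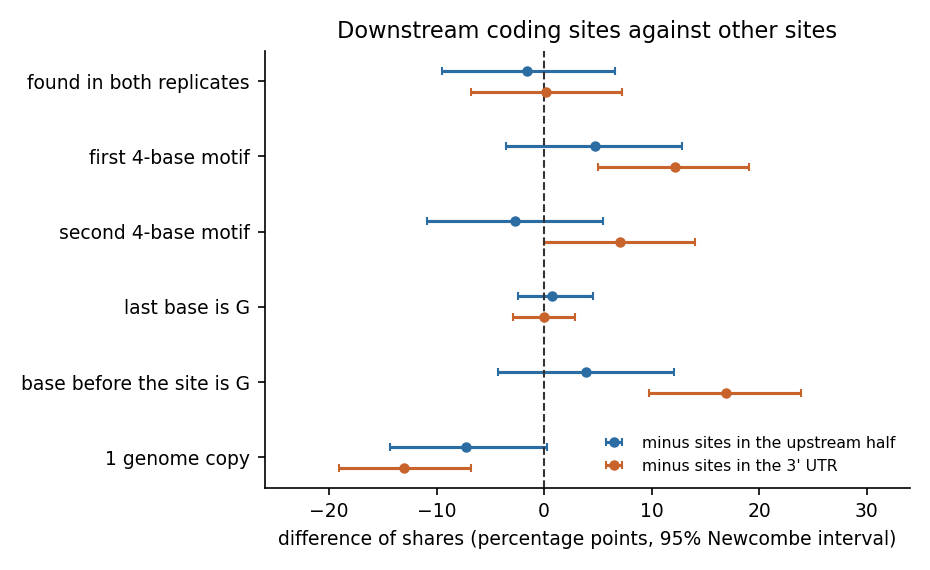
Share of second-half sites with each property minus the share among sites before the midpoint (blue) or in 3′ UTRs (orange), in percentage points on the x axis, with 95% Newcombe intervals as bars. The first 4-base motif is CATC and the second is CACC. The intervals against 3′ UTRs lie away from 0 for CATC (12.1 points), a G before the site (16.9) and a single genome copy (-13.0), and none against the sites before the midpoint does.

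How far a motif stood above its surroundings depended on which windows it was set beside. Over all windows of the site's own width in the same stretch of the same transcript that contained a T, CATC was in 14.0% and CACC in 14.3%, so the sites exceeded them 3.44 and 3.06 times. Windows with the same number of G and the same last base as the site, and free of any site, existed for 236 of the 373. For these, CATC was in 46.6% of sites and 26.5% of windows, a ratio of 1.76, and CACC in 43.2% and 27.9%, a ratio of 1.55. The ratios were lower than in the first count, from which these windows differ in G number, last base, distance from sites and the sites that had any. Windows matched in G number and last base, with those over sites kept, existed for 371 sites. They gave lower ratios still, 1.19 for CATC and 1.22 for CACC. The windows free of sites were chosen after the values were seen. Of the 4-base words in at least 38 sites, CAAC had the highest ratio in the first count (3.87), ahead of CATC. In the G-matched count free of sites CCAT came first (1.95) and CATC next. CCAT and CATC overlap by 3 bases, so these are in part the same occurrences. Sites before the midpoint gave ratios of 1.44 for CATC and 1.57 for CACC, in the 143 that had matched windows free of sites.

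In the coding sequence each CATC also has a reading frame. ATC is a codon for isoleucine, and it is read as such where the first C of CATC is the last base of the codon before. This was so for 168 of 227 CATC in second-half sites (74.0%, 67.9 to 79.3%). Over all 2274 CATC in the same stretches of these transcripts it was 59.98%. For CATC and CACC alike, the counts over all include those in sites. The 7 sites in transcripts with an incomplete coding sequence were left out. The first C was the first base of a codon in 10.1% of site CATC and in 16.1% of all, and the second base in 15.9% and 23.9%. Leaving out Rep.B moved the 10.1% to 5.99%, and leaving out Rep.A to 11.005%. The shift toward the isoleucine frame was smaller against G-matched windows outside sites. In the 145 sites that had such windows with CATC, the windows gave 64.7%, and 57 of the 80 CATC of the sites themselves were in that frame (71.3%, 60.5 to 80.0%), an interval that holds the window value. For CACC, the frame in which ACC is read as threonine held 49.5% of 220 in sites (43.0 to 56.1%). Over all 2539 it was 47.3%, which lies within that interval. G-matched windows outside sites held CACC for 147 sites, and these windows gave 49.1%. In those sites 38 of 96 CACC were in that frame (39.6%, 30.4 to 49.6%), below the windows, whose value the interval holds.

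Coverage did not separate sites with and without CATC. In Rep.A the median was 12.9 reads with CATC and 14.0 without, and for Rep.B clusters 33.4 and 30.4. The highest sites of both libraries, in HNRNPUL1 and NDUFA12, have none. PRPF8, the core protein of the spliceosome, had 3 shared sites and CATC in each. Their coverage was 35.4, 8.75 and 10 reads (Rep.A) and 62.5, 27.8 and 24 (Rep.B).

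The crosslinks themselves were sparse within a site. A single T with T-to-C transitions was counted in 211 of 257 second-half clusters of Rep.A (82.1%) and 275 of 340 of Rep.B (80.9%), among a median of 5 T bases. The crosslinking efficiency, which is the fraction of T bases with a transition, had medians of 0.22 (Rep.A) and 0.25 (Rep.B). For 3′ UTR clusters it was 0.17 in both, where the median cluster had 6 T bases. Which T carried the transition is known only where every T of a cluster had one, as in 9 second-half clusters. These gave 6 T positions, of which 3 were the T of CATC, against 2.92% of all T in these coding stretches. With so few positions no conclusion was drawn.

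Second-half sites more often than 3′ UTR sites had a sequence that occurs elsewhere in the genome. Of the 364 sites of at least 18 bases, 254 (69.8%, 64.9 to 74.3%) matched hg38 at 1 place. In 3′ UTR sites the share was 82.8%, a difference of -13.0 points (Newcombe interval -19.1 to -6.82). Before the midpoint it was 77.1%, a difference of -7.28 points (-14.3 to 0.227). The 110 sites with more copies had a median of 3, and 15 had over 10. A copy lay in an exon of a pseudogene for 88 of the 110 and in an exon of another protein-coding gene for 47. Single-copy sites were found in both replicates in 62.6% of cases and the others in 56.4%.

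Most genes had a single second-half site, 278 of the 319. A further 33 had 2, 4 had 3, 3 had 4 and 1 had 5. Neighbouring sites of a gene were a median of 186 coding bases apart (54 pairs), and 16 pairs lay within 100 bases. In 38 genes there were sites on both sides of the midpoint, in 281 only past it and in 168 only before it.

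EIF4G2 had the most sites. It encodes a relative of the initiation factor eIF4G that lacks the part that binds the cap-binding protein. Its 5 sites all had 1 genome copy, and 4 were shared. Along the coding sequence they had 25.4, no cluster, 9.78, 33.3 and 64.0 reads (Rep.A) and 63.8, 18.8, 35.3, 64.9 and 120.8 (Rep.B). The last 3 lie in exon 20 of 22, and both replicates ranked them in the same order. There was no site before the midpoint or in the 3′ UTR.

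EEF2, KHSRP and ACTB had 4 sites each, and only 1 of the 4 was shared in every case. EEF2 encodes the translocation factor of elongation. Its shared site had 22.7 reads (Rep.A) and 39 reads (Rep.B), its sites in Rep.B alone had 87.6 and 35.9, and the one in Rep.A alone had 24.5. KHSRP, whose product binds AU-rich elements, had 9.79 and 24.1 reads at the shared site and 90.6, 15.5 and 95.9 at those in Rep.B alone. The strongest KHSRP sites were therefore not the shared one. ACTB, beta-actin, had 10 and 37 reads at its shared site, whose sequence has 2 copies, and 69 reads in Rep.B alone at a single-copy site 20 bases before the last coding base.

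YBX1, the gene of YB-1, had 3 second-half sites in exon 4 of 7. They had 29.1, 32.1 and 43.9 reads (Rep.A) and 58.4, 43.3 and no cluster (Rep.B). The shared sequences occur at 5 and 2 places in the genome, pseudogenes included, and the third is too short to search. The longest annotated coding sequence of YBX1 (1121 bases) is incomplete. On the canonical transcript (972 coding bases) the first of the sites falls at base 478, before the midpoint, and the others stay past it. GCN1, whose product activates the stress kinase GCN2 at stalled ribosomes, had 1 site, in exon 49 of 58, with 5.76 reads (Rep.A) and 11 reads (Rep.B). It has CATC 3 times. YBX3, which encodes the related protein YB-3, and EIF4EBP1, which encodes an inhibitor of cap-dependent initiation, had no second-half site. This absence concerns the second-half stretch alone. The study reports YB-1 and YB-3 binding sites on EIF4EBP1 mRNA.

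**Figure D4:**
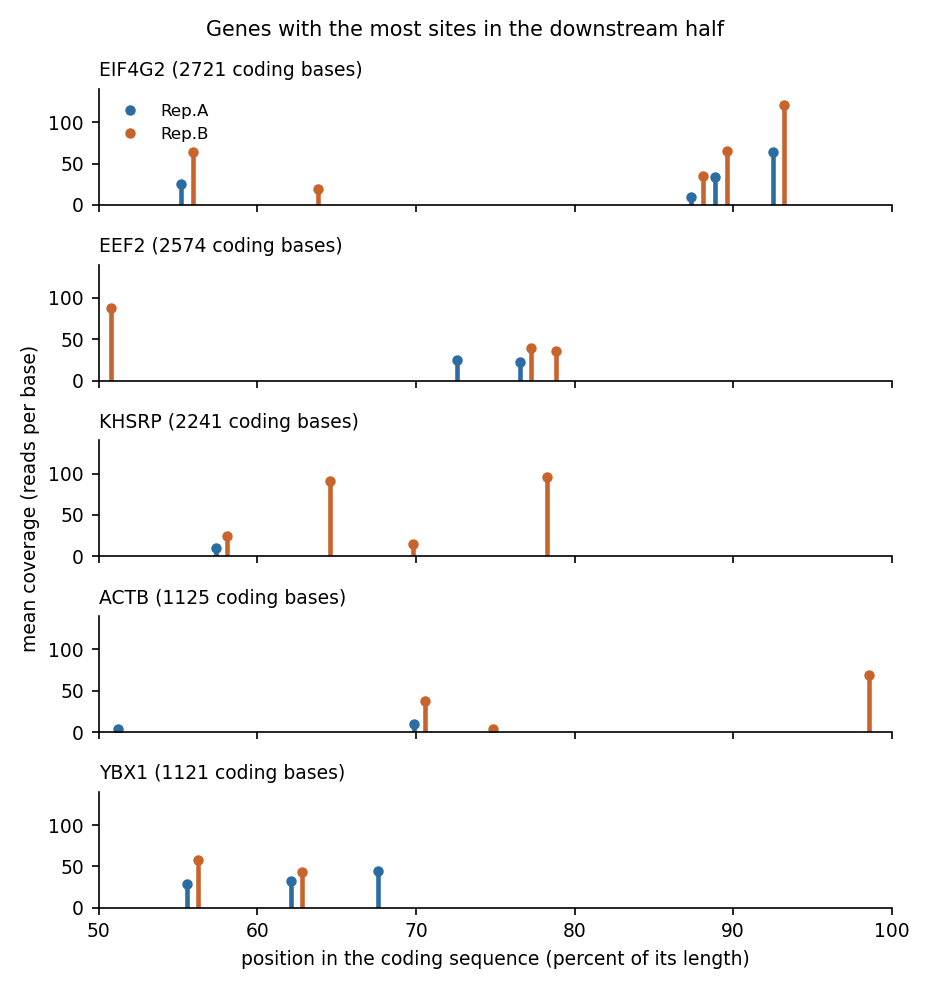
Mean coverage in reads per base (y axis) at each second-half site of the 5 genes with the most sites, by position in the coding sequence as a percentage of its length (x axis). Blue stems are Rep.A and orange stems Rep.B, and a site with 1 stem was called in that replicate alone. EIF4G2 has 4 sites with both stems, and EEF2, KHSRP and ACTB have 1 each.

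Gene groups, 10 with 486 genes in all, were then examined, and 71 of these genes had 98 of the 373 sites. Over all 19702 protein-coding genes, expressed or not, 1.62% had a second-half site. The lists were chosen with earlier results of these data known, so the shares below are no test of enrichment. The groups are of highly expressed genes for the most part, and transcript level was not available, so its part in these counts was not tested.

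Of 80 cytosolic ribosomal protein genes, 21 (26.3%) had second-half sites and 9 had sites before the midpoint. Of their 25 sites, 17 were shared. RPL29 had 50.7 reads (Rep.A) and 123.2 reads (Rep.B), RPL8 44.3 and 116.6, and RPL23 43 and 100, all from the large subunit, and RPLP0 of the ribosomal stalk had 30 and 80.6. Of the 24 sites searched, 7 had a single genome copy, so for most of them reads of the gene and of its copies cannot be told apart. The RPL29 and RPL23 sites are among the 7. CATC was in 7 of the 25 and CACC in 9.

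Translation factors followed, with 10 of 44 genes (22.7%) and 18 sites, 10 of them shared and 11 single-copy. After EIF4G2 the highest shared sites were those of EIF4A1, the initiation helicase (27 reads (Rep.A) and 36 reads (Rep.B), 5 copies), EEF2, and EEF1G, an elongation factor subunit (18.2 and 48.7, 2 copies). Of the actin and tubulin group, 7 of 39 genes had 14 sites, 7 of them shared and 5 single-copy. TUBA1C had 10 and 19 reads at its best shared site, ACTG1 9.95 and 17.9, and VIM, the intermediate filament protein vimentin, 5.58 and 27.1. Over all sites of the group the median coverage was 7 reads (Rep.A) and 23.1 reads (Rep.B), against 14.9 and 18.3 for ribosomal protein genes.

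Chaperone and proteasome genes had sites in 12 of 65, 8 of 12 sites shared and 6 single-copy. PSMA5 led them with 30.7 reads (Rep.A) and 60.6 reads (Rep.B), ahead of HSPA1A (14 and 29), PSMB2 and HSP90AA1 (10.8 and 29.9). The HSPA1A sequence is the same in HSPA1B and HSPA1L, each of which also received a called site. Of 61 genes for hnRNP, SR and helicase proteins, 6 had 10 sites, 6 of them shared. Beside HNRNPUL1 and YBX1 these included NCL, the nucleolar protein nucleolin (25.8 and 59.0 reads), and the poly(C)-binding protein PCBP1 (26.5 and 44.4), both single-copy. YBX1 and NCL, which are not hnRNP, SR or helicase proteins, held 3 and 2 of the 10 sites. Only 1 of the 10 sites had CATC.

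The remaining groups had few sites. Glycolytic enzymes had 3 in 2 of 17 genes, all shared, led by GAPDH (15 reads (Rep.A) and 49 reads (Rep.B), 3 copies), with LDHB at 6.86 and 8. The group of tRNA synthetases and amino acid synthesis had 4 in 3 of 34 genes, among them WARS1 (30 and 67) and HARS1 (14 and 27), which charge tryptophan and histidine tRNA. Histone and HMG genes of the list had 4 in 3 of 24, led by H2BC21 (30.2 and 53.1) and H2AC20 (12.9 and 50.8), and none was single-copy. Oxidative phosphorylation had 4 in 3 of 70, where ATP5F1C of the ATP synthase had 13 and 47 reads and NDUFA12 was not on the list. Cell cycle and replication genes had 4 in 4 of 52, and of these TYMS, thymidylate synthase, was shared (14 and 31). This last group and the oxidative phosphorylation group had the lowest shares of genes with a site among the 10, at 7.69% and 4.29%. The share over all genes was 1.62%. Genes with a site before the midpoint numbered 4 for translation factors, 6 for actin and tubulin and 6 for chaperones and proteasome. They numbered 3 for hnRNP, SR and helicase genes and 1 for histones and HMG. Glycolysis, oxidative phosphorylation and tRNA synthetases had 2 each. Cell cycle and replication had 6, more than the 4 past the midpoint.

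**Figure D5:**
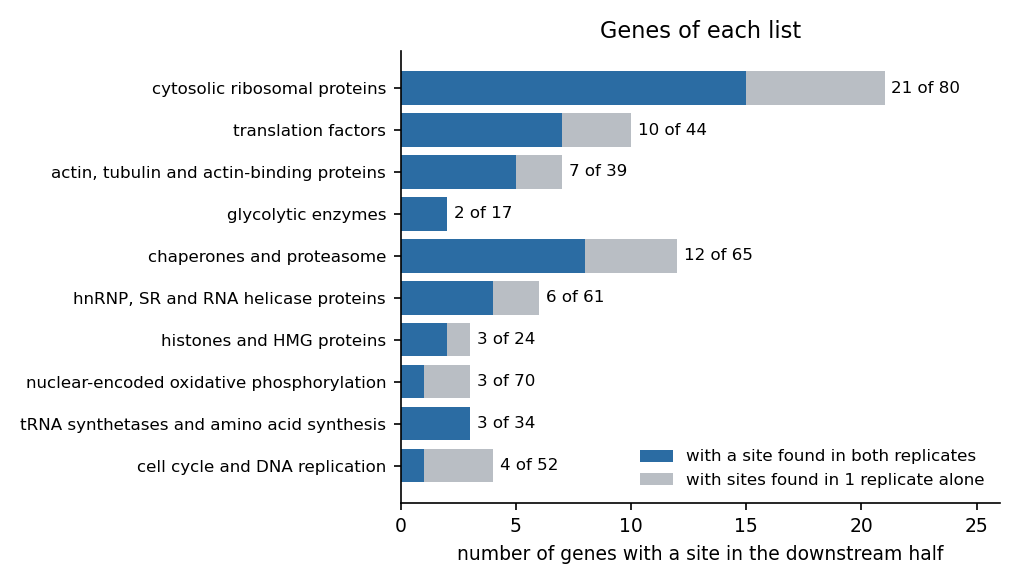
Number of genes with a second-half site (x axis) in each of the 10 gene groups (y axis). Blue counts genes with a site found in both replicates, grey those with sites in 1 replicate alone, and the label gives the sum and the size of the group, from 21 of 80 ribosomal protein genes to 2 of 17 glycolytic enzymes.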

How the data were processed

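YB-1 PAR-CLIP clusters of 2 independent replicates of wild-type HEK293T cells were analysed. Per the labels, the authors trimmed reads with cutadapt 2.10 and aligned them to hg38 with Bowtie 1.0.0, unspliced, and a read with several matches was placed at 1 of them. wavClusteR was run on each replicate separately. The authors' mean coverage, a signal, counts reads per base and is unscaled for depth. The deposited tables also hold the count of T positions with a transition, the count of T bases, the crosslinking efficiency as a fraction, and the log odds score. The study names deduplication for its libraries in general and does not list it among the PAR-CLIP steps, so whether it was applied is unclear. Library totals are not in the tables.

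Clusters were placed on GENCODE release 44. Shares have 95% Wilson intervals and differences of shares Newcombe intervals. Exact copies of sequences of 18 to 100 bases were sought on both strands of hg38. Motif shares were set beside every window of the same width in the same transcript, with a T, and then beside those with the same number of G and the same last base that overlap no site, the latter chosen after the values were seen. No hypothesis test was run. The members and lists were chosen with earlier results of these data known. Named genes are the 15 shared sites of highest mean log2 coverage, the 5 genes with most sites, at most 4 shared sites per list, the 5 sites nearest the stop codon, 3 on each side of the midpoint, the 3 highest sites of each replicate alone, and YBX1, YBX3, ATF4, GCN1 and EIF4EBP1. PSMB2 also came from its list, and PRPF8, H2BC13, HSPA1B, HSPA1L, RPS13, RPL15 and the genes of the closing section were chosen after their values were seen. Sequences on chromosome 8 were not printed. Some of the genes so chosen are left out here. The assignment, overlap and motif steps were tested on simulated data. Alternatives were another transcript, the whole cluster past the midpoint, no width limit, a coverage of at least 10, a log odds at or above the median, single-copy sequences, 50% reciprocal overlap, each gene once and each replicate left out. The work was done in Python 3.11.15 with pysam 0.24.0, pandas 2.3.3, matplotlib 3.10.9, numpy 2.4.6, samtools 1.23.1 and scipy 1.17.1.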

Additional observations from a re-analysis of the deposited data

How the results depend on the processing

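Of 101 values recomputed under alternatives, 96 stayed within the interval of the reported value (for medians, its quartiles or SD, and for counts within 1.5 times). Several alternatives keep most of the same sites, and quartiles and SD describe the spread over sites. Few values could leave such limits, so this count is weak evidence of stability. The 101 include the CATC and CACC shares over sites with matched windows, which were not planned. The share of sites found in both replicates fell to 48.9% with a mean coverage of at least 10 reads. It fell to 41.4% with a relative log odds at or above the median of the replicate. Both filters acted on single clusters before clusters were joined, so a site could lose its partner in 1 replicate. The coverage filter left 172 of 257 sites with a Rep.A cluster and 309 of 340 with a Rep.B cluster. The share with 1 genome copy was 75.9% with a coverage of at least 10, and the share ending in G was 98.0% among single-copy sequences. CATC with its first C at the first base of a codon ranged from 5.99% to 11.005% over leaving out Rep.B or Rep.A. The cause of these shifts was not tested. Without matching windows outside sites, all windows with the same number of G and the same last base, which include those over the site itself, gave ratios of 1.19 for CATC and 1.22 for CACC. On canonical transcripts 368 of the 373 sites stayed, 5 left and 3 joined. No paired analysis was possible because there was 1 group. Depth limits what is listed, since a cluster absent from a table may lie under the calling threshold of that library.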

Other observations

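Gene families picked after the values were seen are given here beside the 1.62% of all protein-coding genes that had a second-half site. Genes for the core histones H2A and H2B had 18 in 15 of 36 genes, of which 11 were found in both replicates and 14 held CATC or CACC. These include H2BC21, H2AC20 and H2BC12 of the histone and HMG group already described. The same genes had 3 sites before the midpoint and 1 in a 3′ UTR. None of the 18 was a single-copy sequence, and the 13-base site of H2AC12 was too short to search. H2BC26 had 14 reads (Rep.A) and 60.8 reads (Rep.B), and H2AC12 had 18.7 and 53.2. Between near-identical histone genes, reads cannot be assigned, so these are counts of positions rather than of bound genes.

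Genes named ZNF, ZFP or ZSCAN, most of them for zinc finger proteins, had 11 second-half sites in 10 of 558 genes, 7 of them shared and 9 single-copy, with 6 sites before the midpoint and 15 in 3′ UTRs, and their share of genes with a site was near that of all genes. ZNF22 and ZNF317 lie among the highest sites of their kind. POTE genes, whose coding sequence contains an actin-like end, had 7 second-half sites in 4 of 12 genes. None was shared and none was single-copy, and the POTEI and POTEE sequences include one that is identical to a site of ACTB.

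In all, 14 sequences were shared by 32 second-half sites of 28 genes, and 14 of these sites were found in both replicates.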
